A study of Mus musculus with 24 samples.

Results

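The genes described here are 10 imprinted growth-control genes, Cdkn1c, Ndn, Grb10, Igf2r, H19, Dlk1, Meg3, Peg3, Mest and Plagl1, chosen by name and each present once among the 24454 genes of the count table. RNA was sequenced with Smart-seq2, a protocol for small amounts of RNA, in 24 libraries of 3 cell populations sorted from mouse bone marrow. Long-term haematopoietic stem cells are written LTHSC. The preMegE population holds progenitors with megakaryocyte and erythroid potential, and the MkP population holds progenitors restricted to the megakaryocyte, the platelet-producing cell. All mice were C57BL/6N; all received tamoxifen over 5 days, and cells were sorted 12 weeks later.

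The labels name 3 genotypes. VF is Vav1.Cre with V617F, an activating change of the cytokine-receptor kinase JAK2. E12 is Scl.Cre with an Exon12 genotype label; the titles and count columns of these samples read Scl.N1 instead. KI is Scl.Cre with a mouse Jak2 knock-in. Vav1 drives Cre in blood cells broadly and Scl in blood stem and progenitor cells, so the Cre driver changes together with the VF genotype and the 2 cannot be told apart. No label states that a group carries unmutated Jak2, and KI, used as the common comparison group, is not taken as wild type. LTHSC and MkP each had VF, E12 and KI groups, preMegE had VF and KI groups, and the 24 libraries held no E12 preMegE group. Each of the 8 groups had 3 libraries. Separate animals are not named for the replicates, and the p-values therefore measure the spread between libraries, which may be technical.

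An imprinted gene is transcribed mainly from the copy inherited from a given parent, because DNA methylation laid down in the germ line marks the parental copies. In the mouse, Cdkn1c, Igf2r, H19 and Meg3 are known as maternally expressed genes, as is Grb10 outside neurons, and Ndn, Dlk1, Peg3, Mest and Plagl1 as paternally expressed genes. Many imprinted genes regulate fetal growth, and several, among them Cdkn1c and the genes of the Dlk1-Meg3 domain, are known in mice for a part in keeping blood stem cells quiescent, that is, out of the cell cycle. The counts do not separate the parental copies, so every level below is the sum of both.

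Total counts ranged from 10357877 to 29691635 per library, with 13237 to 16006 genes detected. Levels are CPM, a gene's counts relative to its library's own TMM-scaled size, with TMM factors computed over all 24 libraries together. On that scale 3 counts corresponded to 0.0899 to 0.503 CPM depending on the library. Of the fixed marker lists, 10 of 10 LTHSC markers were lower in preMegE than in LTHSC and 8 of 10 in MkP, 6 of 8 preMegE markers were higher and 1 lower in preMegE than in LTHSC, and 9 of 10 tested MkP markers were higher in MkP than in LTHSC and than in preMegE. The preMegE list did not single out preMegE: 8 of 8 were higher in MkP than in LTHSC, and 3 were higher and 4 lower in MkP than in preMegE. LTHSC E12 replicate 4 stood apart: Mpo, a granule enzyme of neutrophil precursors, was at 16070 CPM in it and between 38.55 and 358.1 CPM in the other LTHSC libraries. It also held 28200 CPM over 14 neutrophil and monocyte genes and 2050 CPM over 13 lymphoid genes. The other LTHSC libraries held 794 to 3510 CPM and 132 to 307 CPM of these. Summed LTHSC markers were 754 to 2260 CPM in the LTHSC E12 group, beside 1840 to 2090 CPM in KI and 1990 to 2130 CPM in VF. With preMegE KI 1, MkP KI 5 and MkP KI 6, LTHSC E12 4 had a TMM scaling factor under 0.8 within its population. Every comparison was also made without these 4 libraries, a choice made after seeing the data.

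Promoter windows of RefSeq (GRCm38.p6), from 250 bases before to 50 after a start, were found for 8 of the 10 genes, 12 windows in all; none was found for Cdkn1c and H19. The 4 below belong to Meg3, Ndn and Peg3, low outside LTHSC, and to Igf2r, overlapping between preMegE and LTHSC but lower in MkP. They are written 5′ to 3′ on the gene's strand with CpG dinucleotides, the sites of DNA methylation in mammals, in capitals.
Meg3, chr12:109540746-109541045, plus strand: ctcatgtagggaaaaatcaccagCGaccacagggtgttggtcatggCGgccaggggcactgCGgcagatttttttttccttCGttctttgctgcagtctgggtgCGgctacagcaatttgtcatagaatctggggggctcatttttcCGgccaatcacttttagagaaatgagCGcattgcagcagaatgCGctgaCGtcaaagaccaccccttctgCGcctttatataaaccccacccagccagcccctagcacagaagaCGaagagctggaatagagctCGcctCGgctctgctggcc
Ndn, chr7:62348027-62348326, plus strand: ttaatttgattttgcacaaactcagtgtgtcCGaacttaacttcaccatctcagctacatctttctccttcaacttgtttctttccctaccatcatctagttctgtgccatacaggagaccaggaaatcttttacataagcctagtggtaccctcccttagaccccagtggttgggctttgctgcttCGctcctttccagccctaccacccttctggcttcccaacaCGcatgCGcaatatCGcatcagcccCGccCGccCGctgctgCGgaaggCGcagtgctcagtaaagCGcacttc
Peg3, chr7:6730370-6730669, minus strand: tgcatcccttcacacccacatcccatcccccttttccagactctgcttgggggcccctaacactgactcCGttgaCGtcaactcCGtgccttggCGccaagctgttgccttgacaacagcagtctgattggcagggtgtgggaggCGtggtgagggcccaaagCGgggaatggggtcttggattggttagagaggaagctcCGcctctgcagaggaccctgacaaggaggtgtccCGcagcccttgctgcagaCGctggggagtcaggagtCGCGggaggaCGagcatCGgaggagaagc
Igf2r, chr17:12769657-12769956, minus strand: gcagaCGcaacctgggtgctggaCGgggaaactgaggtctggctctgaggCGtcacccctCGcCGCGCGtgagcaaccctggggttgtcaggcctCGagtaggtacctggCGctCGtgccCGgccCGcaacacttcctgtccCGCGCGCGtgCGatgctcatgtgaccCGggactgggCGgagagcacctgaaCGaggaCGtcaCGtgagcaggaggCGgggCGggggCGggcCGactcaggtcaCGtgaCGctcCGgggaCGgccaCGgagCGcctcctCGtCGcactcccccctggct

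A second Meg3 window, not shown, held 1 CpG, more than 5.4% of windows, and neither TATAAA nor CCAAT. The windows shown held 13, 11, 13 and 34 CpG in the order shown, against a median of 7 over 32817 mouse promoter windows of the same length. In the same order they held more CpG than 62.1%, 58.6%, 62.1% and 92.3% of those windows. The Grb10 windows, not shown, held 45 and 9 CpG, more than 98.1% and 54.2%, and Grb10 was lower in preMegE. Searched on both strands, TATAAA was present in the shown Meg3 window and in 13.6% of all windows, CCAAT in the shown Meg3 window and the Peg3 window and in 37.4% of all, and GGGCGG in the Ndn and Igf2r windows and in 35.6% of all. DNA methylation was not measured here.

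All differences between the progenitors and LTHSC that passed the test were lower levels in the progenitors: Cdkn1c, Ndn, Meg3, Dlk1 and Peg3 were lower in both preMegE and MkP, Grb10 was lower in preMegE, and Igf2r was lower in MkP. In preMegE against LTHSC, averaged over VF and KI, 6 of the 9 genes that passed the filter on low counts were lower and 0 higher (edgeR quasi-likelihood test, Benjamini-Hochberg adjusted p under 0.05 over 14965 genes). Of all genes tested, 40.7% were called in that comparison and 19.4% were called lower. The groups did not overlap for 4 of the 10 genes, Cdkn1c, Ndn, Meg3 and Grb10, which were lower in every preMegE library, beside 25.8% of all genes without overlap and 13.1% without overlap and lower. In MkP against LTHSC, averaged over VF, E12 and KI, again 6 of 9 were lower and 0 higher, beside 34.7% of all genes called and 17.7% called lower. In MkP against preMegE, 1 of 9, Ndn, was higher, beside 7.54% of all genes called and 3.27% called higher. The median log2 fold change of the 9 genes was -4.20, -2.25 and 0.11 in these comparisons, and that of all genes -0.02, 0.01 and 0. The values -4.20 and -2.25 are the fitted values of Dlk1, a scarce gene. Dlk1, Meg3 and Peg3 reached the filter through their LTHSC libraries. Neither the share of the 9 that was lower nor their median is therefore evidence about the family. H19 did not pass the filter. In sorted bulk populations, fewer cells with a transcript and less of it per cell cannot be told apart.

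**Figure D1:**
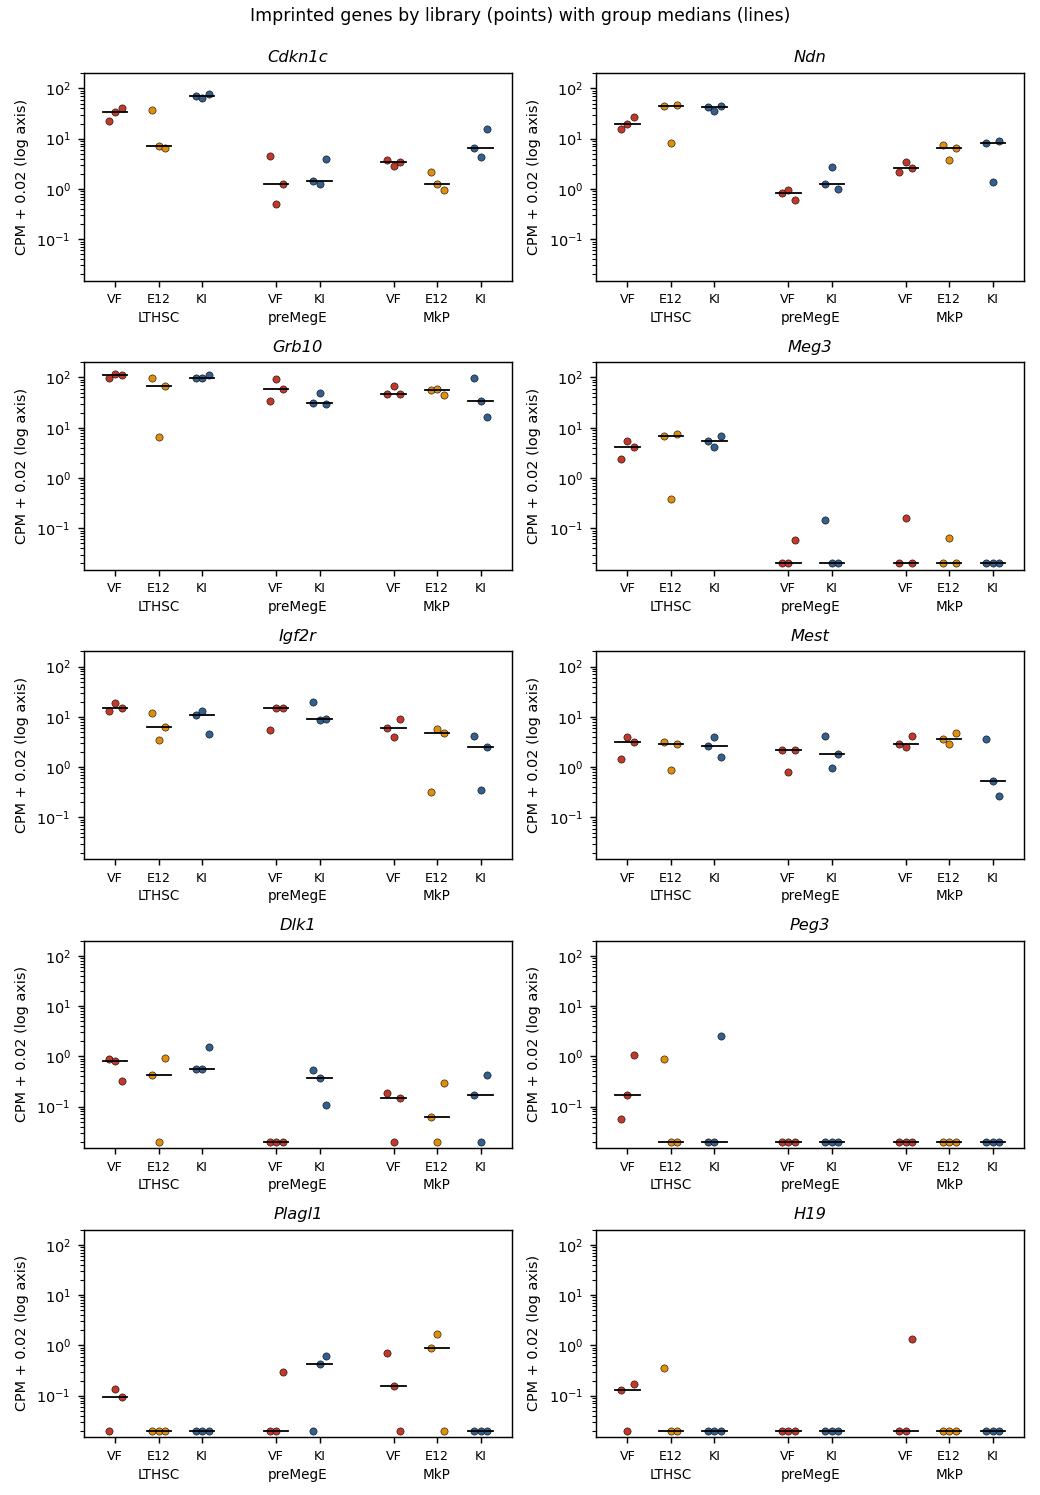
Levels of the 10 imprinted genes in every library (points, CPM + 0.02 on a log axis) by population and genotype, with group medians as lines. Meg3 lay at or below 0.139 CPM in all preMegE and MkP libraries, and Grb10 lay at or above 6.62 CPM in all 24.

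Per kilobase of transcript, which allows levels of different genes to be compared, the order in LTHSC was led by Ndn, Cdkn1c and Grb10, with medians of 21.1, 19.1 and 19.1 CPM per kilobase. Their ranges overlapped widely, and Igf2r (1.32), Mest (1.04), Meg3 (0.424) and Dlk1 (0.112) followed, in that order. In preMegE Grb10 led with 8.01 CPM per kilobase, ahead of Igf2r (1.35), Mest (0.721), Cdkn1c (0.675) and Ndn (0.578), of which these last 4 overlapped. In MkP Grb10 led with 9.25, followed by Ndn (2.29), Cdkn1c (1.76), Mest (1.02) and Igf2r (0.460), whose ranges again overlapped.

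Cdkn1c (Entrez 12577, chromosome 7, 143458339 to 143461059, minus strand, GRCm38.p6) encodes p57Kip2, an inhibitor of cyclin-dependent kinases that holds cells out of the cycle. In LTHSC its level was 22.9, 33.4 and 40.8 CPM in VF replicates 1, 2 and 3, 6.58, 37.2 and 6.98 CPM in E12 replicates 11, 2 and 4, and 71.9, 64.1 and 78.9 CPM in KI replicates 1, 2 and 3. In preMegE it was 4.43, 0.479 and 1.23 CPM in VF, and 1.39, 1.23 and 3.84 CPM in KI. In MkP it was 3.75, 2.88 and 3.42 CPM in VF, 2.18, 1.23 and 0.939 CPM in E12 replicates 2, 4 and 5, and 6.59, 4.36 and 15.6 CPM in KI replicates 4, 5 and 6. All 6 preMegE libraries lay below every LTHSC library, and so did 7 of 9 MkP libraries; MkP KI 4 and KI 6 were above the lowest LTHSC library, E12 11. The log2 fold change was -4.51 in preMegE against LTHSC (SE 0.55, edgeR adjusted p = 4.17e-06) and -3.27 in MkP against LTHSC (SE 0.42, adjusted p = 4.8e-06). The difference between MkP and preMegE did not pass the test (log2 1.37, SE 0.50, edgeR adjusted p = 0.1). The adjusted p was 0.0409 with DESeq2 and 0.0157 without preMegE VF 1. Cdkn1c shares 625 exon bases with Gm44732 on the opposite strand, a gene not in the count table. The strand setting of the counting is not given, so reads of Gm44732 may be counted as Cdkn1c.

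Ndn (Entrez 17984, chromosome 7, 62348277 to 62349928, plus strand) encodes necdin, a growth suppressor that binds E2F and p53 and is known in mice for restraining stem cell cycling. In LTHSC it was at 15.6, 19.4 and 27.5 CPM in VF, 45.8, 44.7 and 8.11 CPM in E12, and 42.1, 34.8 and 45.0 CPM in KI. In preMegE it was at 0.828, 0.915 and 0.596 CPM in VF and 1.26, 2.71 and 0.993 CPM in KI. In MkP it was at 2.14, 3.48 and 2.53 CPM in VF, 7.31, 3.78 and 6.64 CPM in E12, and 8.36, 1.34 and 8.82 CPM in KI. Ndn was thus lowest in preMegE and intermediate in MkP, with every preMegE library below every LTHSC library and 7 of 9 MkP libraries below the lowest LTHSC library, E12 4. Without that library all 9 were below. The log2 fold change was -4.66 in preMegE against LTHSC (SE 0.47, edgeR adjusted p = 5.14e-07), -2.70 in MkP against LTHSC (SE 0.35, adjusted p = 4.38e-06) and 1.85 in MkP against preMegE (SE 0.43, adjusted p = 0.00924). The MkP and preMegE ranges overlapped, through MkP KI 5, VF 1 and VF 3 and through preMegE KI 2, the highest preMegE library.

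Grb10 (Entrez 14783, chromosome 11, 11930499 to 12037428, minus strand) encodes an adaptor that binds the insulin and IGF1 receptors and dampens their signal. It kept a substantial level in all populations: medians were 98.8 CPM in LTHSC (range 6.62 to 118), 41.3 in preMegE (29.6 to 91.9) and 47.7 in MkP (16.3 to 96.9). The value of 6.62 belongs to LTHSC E12 4, and the other LTHSC libraries lay at 66.5 CPM or above. In the VF and KI genotypes every preMegE library was below every LTHSC library (log2 -1.15, SE 0.43, edgeR adjusted p = 0.0365). That call was lost when any of 10 of the 12 libraries compared was left out, with an adjusted p of 0.051 to 0.0888 in those 10 fits, and without the filter it was 0.0538. In MkP against LTHSC the log2 fold change was -0.73 (SE 0.35, adjusted p = 0.111). It passed the threshold without LTHSC E12 4 (log2 -0.90, adjusted p = 0.00912), without MkP KI 4 (log2 -1.05, adjusted p = 0.0122), and without the 4 libraries of low TMM factor (log2 -0.62, adjusted p = 0.014).

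Igf2r (Entrez 16004, chromosome 17, 12682406 to 12769706, minus strand) encodes the receptor that takes up IGF2 and delivers it for degradation. Its levels ran from 3.47 to 18.8 CPM in LTHSC (median 11.8), from 5.36 to 20.1 in preMegE (median 12.0) and from 0.294 to 9.11 in MkP (median 4.10). The preMegE and LTHSC ranges overlapped over most of their extent (log2 0.01, SE 0.53, edgeR adjusted p = 1). In MkP Igf2r was lower than in LTHSC (log2 -1.41, SE 0.44, adjusted p = 0.0171), with the groups overlapping. Against preMegE, MkP had a log2 fold change of -1.62 (SE 0.55, adjusted p = 0.074; 0.018 with DESeq2 and 0.0294 without MkP KI 4). The lowest values were those of MkP E12 2, at 0.294 CPM, and MkP KI 5, at 0.335 CPM. Airn, the noncoding RNA that silences the paternal Igf2r copy in the mouse embryo, had medians of 3.26 CPM in LTHSC, 1.79 in preMegE and 0.956 in MkP. It was lower in MkP than in LTHSC (log2 -1.69, SE 0.59, edgeR adjusted p = 0.0301). The other comparisons of Airn were not called (preMegE against LTHSC log2 -0.40, adjusted p = 0.678, and MkP against preMegE -1.82, adjusted p = 0.142).

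Igf2, the ligand that Igf2r removes, had 0 counts in the 6 preMegE and the 9 MkP libraries and 61 counts in LTHSC, where its highest level was 0.861 CPM. H19, the noncoding RNA next to Igf2 and the host of miR-675 (Entrez 14955, chromosome 7, 142575530 to 142578146, minus strand), was near zero in nearly all libraries. It had 32 counts (1.35 CPM) in MkP VF 3, 10 counts (0.335 CPM) in LTHSC E12 2, and 4 and 3 counts in LTHSC VF 3 and VF 1. The other 20 libraries had 0 counts, and no test was made. H19 shares 84 exon bases with Mir675, whose reads cannot be told apart from its own.

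Meg3 and Dlk1 are reciprocally imprinted neighbours on chromosome 12: Meg3 (Entrez 17263, 109540996 to 109571729, plus strand) is a maternally expressed noncoding RNA, and Dlk1 (Entrez 13386, 109452485 to 109463336, plus strand) encodes a transmembrane protein related to Notch ligands. In LTHSC Meg3 was at 2.32, 5.55 and 4.07 CPM in VF, 7.62, 6.80 and 0.360 CPM in E12, and 5.49, 4.10 and 6.81 CPM in KI. Outside LTHSC it was almost undetected: 1 count in each of 2 of 6 preMegE libraries, and 1 and 3 counts in 2 of 9 MkP libraries. Pooled over VF and KI, 2 counts in preMegE stood against 612 in LTHSC, a level 294-fold lower (95% counting interval 81.1 to 2430). Pooled over the 3 genotypes, 4 counts in MkP stood against 1072 in LTHSC, a level 241-fold lower (93.9 to 886). The groups did not overlap in either comparison, and Meg3 was the only one of the 10 for which that held in MkP, beside 4.75% of all genes. The edgeR test gave log2 -7.69 in preMegE (SE 1.11, adjusted p = 3.75e-05) and -8.09 in MkP (SE 0.94, adjusted p = 2.2e-06). Meg3 reached the filter through its LTHSC libraries, which favoured a lower call, so these p-values are not separate evidence. MkP KI had 0 counts, so the fitted MkP value depends on the prior count. LTHSC E12 4 had the lowest LTHSC level, and the counting intervals cover counting error only. Meg3 shares 1228 exon bases with Gm26906, a gene on the opposite strand and not in the count table. With the strand setting not given, reads of Gm26906 may be counted as Meg3.

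Dlk1 was scarce throughout. In LTHSC it was at 0.862, 0.788 and 0.301 CPM in VF, 0.918, 0.402 and 0 CPM in E12, and 0.530, 0.536 and 1.5 CPM in KI. In preMegE all 3 VF libraries had 0 counts and KI was at 0.505, 0.343 and 0.0863 CPM, and in MkP the range was 0 to 0.405 CPM. The populations overlapped. Dlk1 was lower in preMegE than in LTHSC (log2 -4.20, SE 1.24, edgeR adjusted p = 0.0108, a fitted value that depends on the prior count since VF had 0 counts), and pooled counts gave a level 5.95-fold lower (3.49 to 10.8). It was also lower in MkP than in LTHSC (log2 -2.25, SE 0.86, adjusted p = 0.0469; 4.88-fold lower from pooled counts, 3.19 to 7.72). The MkP call was lost when any of 15 of the 18 libraries was left out (adjusted p 0.0186 to 0.102 over the 18), and without the filter (0.0707).

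Other transcripts of the same domain were named as neighbours after their values were seen. In LTHSC, preMegE and MkP, Rian had 177, 1 and 2 counts, Rtl1 had 46, 0 and 0 counts, and Mirg had 11, 0 and 0 counts. Dio3 had 0 counts in all 24 libraries. Begain, upstream of Dlk1, had 481, 68 and 385 counts in LTHSC, preMegE and MkP; it was lower in preMegE than in LTHSC (log2 -2.40, SE 0.87, edgeR adjusted p = 0.032) and not called in MkP against LTHSC (log2 -0.31, SE 0.67, adjusted p = 0.762). Of 13 tested genes of imprint maintenance and DNA methylation, 4 were higher and 3 lower in preMegE than in LTHSC, and 6 higher and 1 lower in MkP than in LTHSC, beside 40.7% and 34.7% of all genes called. The maintenance methyltransferase gene Dnmt1 and its partner Uhrf1 were higher in both. Zfp57, a zinc finger protein that keeps methylation at imprinted loci in mouse embryos and embryonic stem cells, was lower in preMegE than in LTHSC (log2 -3.69, SE 0.43, edgeR adjusted p = 2.57e-06) and in MkP than in LTHSC (log2 -1.60, SE 0.32, adjusted p = 0.000613). It was higher in MkP than in preMegE (log2 1.85, SE 0.41, adjusted p = 0.00574).

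**Figure D2:**
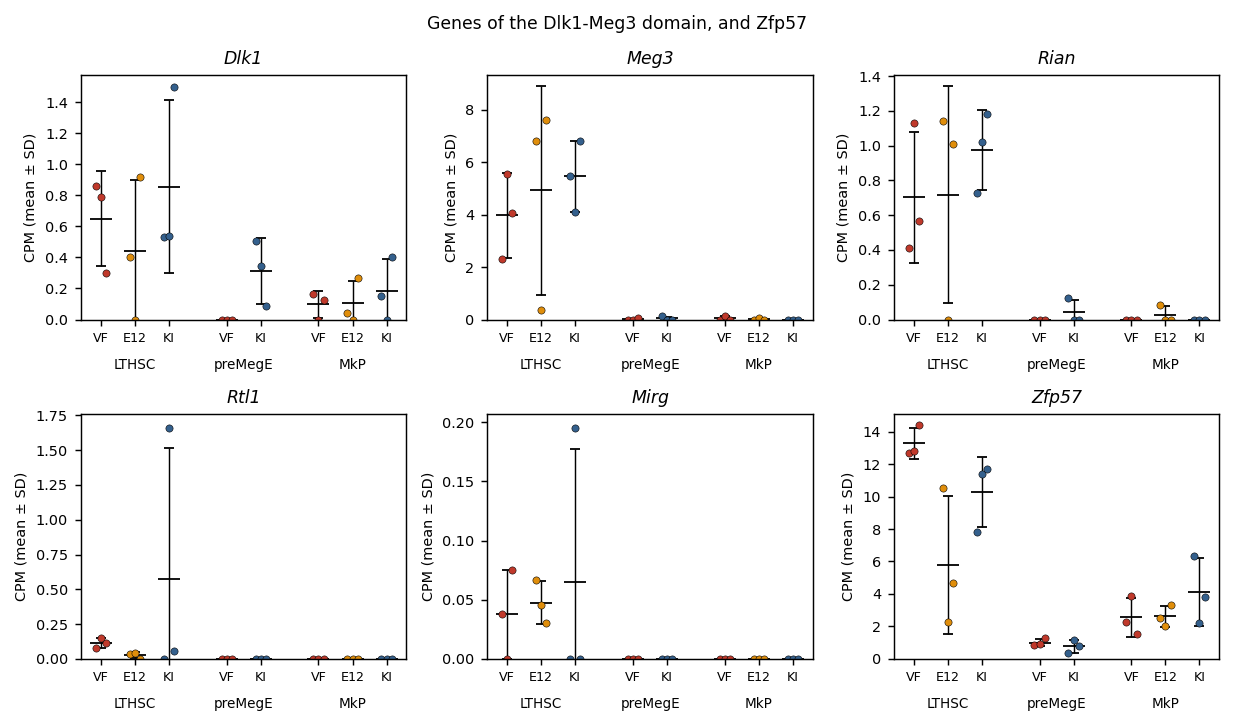
CPM of Dlk1, Meg3, Rian, Rtl1 and Mirg, transcripts of one imprinted domain, and of Zfp57, in every library (points) with group mean and SD (lines, n = 3). Each panel has its own axis from 0, and SD bars that would pass below 0 end there; these 5 transcripts are near 0 in preMegE and MkP except for Dlk1, which reaches 0.505 and 0.405 CPM.

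Peg3 (Entrez 18616, chromosome 7, 6703892 to 6730462, minus strand) encodes a zinc finger protein linked to growth and to p53-dependent cell death. It had counts in 5 of 9 LTHSC libraries only: 0.0375, 0.15 and 1.02 CPM in VF, 0.871 CPM in E12 2 and 2.52 CPM in KI 3. None of the 6 preMegE or 9 MkP libraries had a count, so Peg3 reached the filter through LTHSC alone and only a lower call was possible. Against the limit set by 3 counts over the group, with the LTHSC counts taken as fixed, Peg3 was at least 25.3-fold lower in preMegE and at least 31.5-fold lower in MkP. The exact 95% counting interval, which also covers the LTHSC counts, starts at 20.1 and 25.2. LTHSC KI 3 held 47 of the 79 and of the 105 counts behind these limits, and without it they were 11.9 and 19. The edgeR adjusted p was 0.0328 in preMegE and 0.0184 in MkP, and without LTHSC KI 3 it was 1 in both. The preMegE call was lost without any of 7 of the 12 libraries. Without LTHSC E12 2 the adjusted p was 1 in MkP, and with DESeq2 it was 0.14 in preMegE and 0.0924 in MkP. Most Peg3 counts thus came from few LTHSC libraries.

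Mest (Entrez 17294, chromosome 6, 30733506 to 30748466, plus strand) encodes an enzyme of the alpha/beta hydrolase family. Its medians were 2.87 CPM in LTHSC (0.856 to 3.90), 2.00 in preMegE (0.784 to 4.16) and 2.84 in MkP (0.243 to 4.76), and all 3 populations overlapped. The log2 fold change was -0.48 in preMegE against LTHSC (SE 0.57, edgeR adjusted p = 0.528) and 0.00 in MkP against LTHSC (SE 0.49, adjusted p = 1). Mest shares 912 exon bases with Copg2 on the opposite strand, and the strand setting of the counting is not given, so their reads cannot be told apart in that stretch. Per kilobase, Copg2 had medians of 20.1, 17.2 and 24.9 CPM in LTHSC, preMegE and MkP, against 1.04, 0.721 and 1.02 CPM for Mest.

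Plagl1 (Entrez 22634, chromosome 10, 13090832 to 13131694, plus strand) encodes a zinc finger transcription factor that regulates other imprinted genes in the mouse embryo. It was the one gene of the family with more counts outside LTHSC in both progenitors: 33 counts in 3 of 6 preMegE libraries and 77 in 4 of 9 MkP libraries, against 5 in 2 of 9 LTHSC libraries. In preMegE it was at 0.278 CPM in VF 3 and at 0.411 and 0.604 CPM in KI 2 and KI 3. In MkP it was at 0.700 and 0.139 CPM in VF 1 and VF 2 and at 0.882 and 1.64 CPM in E12 2 and E12 4. All other progenitor libraries had 0 counts, so groups overlapped, and no comparison passed the test (log2 3.30 in preMegE against LTHSC, edgeR adjusted p = 0.125).

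**Figure D3:**
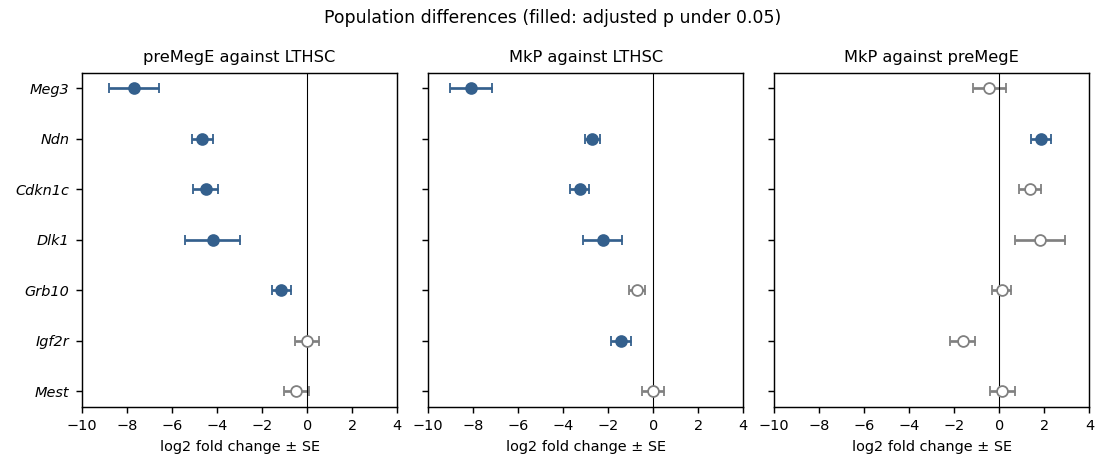
Log2 fold change with SE of 7 of the imprinted genes in the 3 population comparisons (edgeR, all 24 libraries), filled where the adjusted p was under 0.05. Peg3, Plagl1 and H19 are left out; MkP KI for Meg3 and preMegE VF for Dlk1 had 0 counts, so their fitted values depend on the prior count, and Meg3, Ndn, Cdkn1c and Dlk1 lie left of 0 in both progenitors.

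Of 69 other imprinted genes in the table, 49 were tested. In preMegE against LTHSC 4 were higher and 16 lower, a share near the 40.7% of all genes called there. Of all genes tested, 19.4% were called lower. The median log2 fold change was -0.31 beside -0.02 for all genes. In MkP against LTHSC 4 were higher and 15 lower, beside 34.7% of all genes called and 17.7% called lower (median -0.31 beside 0.01). In MkP against preMegE 4 were higher and 3 lower, beside 7.54% of all genes called. Among the lower ones were Snrpn, a splicing protein gene near Ndn that shares its reads with Snurf (log2 -5.76 in preMegE, SE 0.64, edgeR adjusted p = 1.57e-06; -4.06 in MkP, SE 0.47, adjusted p = 1.3e-06), and Sgce, a sarcoglycan (log2 -2.20 in preMegE, SE 0.27, adjusted p = 4.51e-06). The receptor kinase gene Axl was lower in MkP (log2 -4.04, SE 0.51, adjusted p = 3.41e-06). Slc22a3, a cation transporter gene next to Igf2r, was higher in MkP, at 203 CPM against 77.1 CPM in LTHSC (log2 1.43, SE 0.19, adjusted p = 1.01e-05).

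Of 23 tested genes of IGF and insulin signalling, 1 was higher and 6 lower in preMegE against LTHSC, and 1 higher and 3 lower in MkP against LTHSC; both shares were below those of all genes, 40.7% and 34.7%. The growth factor gene Igf1 was among the lower ones in both (log2 -2.35, SE 0.69, edgeR adjusted p = 0.00944 in preMegE; -4.85, SE 0.67, adjusted p = 1.14e-05 in MkP), whereas Igf2bp2, which encodes an mRNA-binding protein, was higher in MkP (log2 1.42, SE 0.26, adjusted p = 0.000307). Of 16 tested cyclin-dependent kinase inhibitors, cyclins, their kinases and pocket proteins, 5 were higher and 2 lower in preMegE, and 8 higher and 1 lower in MkP. Cdk6, the kinase that drives exit from quiescence in blood cells, was higher in preMegE, at 1360 CPM against 452 CPM in LTHSC (log2 1.58, SE 0.26, adjusted p = 0.000123), and in MkP, at 1430 CPM against 563 CPM (log2 1.35, SE 0.21, adjusted p = 5.92e-05). Cdkn1a, which encodes the related inhibitor p21, was higher in preMegE, at 499 CPM in KI 1 and 29.1 to 74.3 CPM in the other 5 libraries, than in LTHSC, at 6.49 to 35.2 CPM in VF and KI (log2 2.68, SE 0.64, edgeR adjusted p = 0.00234), opposite in direction to Cdkn1c. Of 22 proliferation genes, 20 were higher in preMegE and 21 in MkP than in LTHSC, and 0 lower.

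Markers of other cell types differed between the populations too. The counts below stand beside 40.7% of all genes called in preMegE against LTHSC and 34.7% in MkP against LTHSC. Of 12 tested lymphoid genes, 11 were higher in preMegE than in LTHSC. The summed level of the 13 lymphoid genes counted was 711 to 1270 CPM in preMegE VF and 887 to 4560 CPM in preMegE KI. In LTHSC it was 132 to 147 CPM in VF and 134 to 149 CPM in KI. LTHSC E12 replicates 11, 2 and 4 had 307, 228 and 2050 CPM. The sum was 4560 CPM in preMegE KI 1, a library of low TMM factor. In MkP against LTHSC 2 lymphoid genes were higher and 1 lower; the sum was 4910 and 6600 CPM in MkP KI 5 and KI 6, also of low factor, and 362 to 675 CPM in the other MkP libraries. Of 14 neutrophil and monocyte genes, 8 were higher and 1 lower in preMegE, and 6 higher and 4 lower in MkP, than in LTHSC. Over 16 stroma and endothelium genes the sum was 117 to 240 CPM in LTHSC, 86.1 to 141 CPM in preMegE and 57.9 to 207 CPM in MkP, led in LTHSC by Tek and Emcn, which stem cells also express. The stromal gene Lum had 0 counts in all libraries and Pdgfra had counts in 1 LTHSC library. Dcn had 18, 15 and 8 counts in LTHSC, preMegE and MkP, all in VF libraries, and Col3a1 had 26, 2 and 0 counts, 24 of the 26 in LTHSC VF. Cdh5, which marks endothelium, had counts in 4 LTHSC libraries and in no progenitor library. The part of these cells in the results above was not tested.

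By the likeness of their profiles over the 24 libraries (Pearson r of log2 CPM), Cdkn1c was most like Pabpc4l, Prune2 and Crispld1 (r = 0.92 each). Ndn was most like Eya2, the stem cell transcription factor gene Hlf (r = 0.92 each) and Gimap5 (0.91), and Meg3 was most like Arhgap8, Smtnl1 and Clec14a (0.97 each). For Igf2r the 3 were Wdr35 (0.79), Sipa1l3 (0.77) and Tcaim (0.75), and for Mest Zfp850 (0.88), Xpr1 (0.85) and Extl2 (0.84). The scarce genes had S100a3 (0.96), Prnd (0.89) and Prom2 (0.87) for Peg3, Lancl3 (0.83), Mturn (0.82) and Fbxo16 (0.80) for Dlk1, and Cdc42ep1 (0.79), Ackr2 (0.74) and Ina (0.73) for Plagl1. The libraries form population clusters and share their scaling, so these values describe mainly the population pattern.

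Between genotypes, none of the genes tested, 8 in LTHSC, 5 in preMegE and 6 in MkP, was called in any of the 7 comparisons. The most separated gene was Cdkn1c, which was below KI in the VF and E12 groups of LTHSC and of MkP. In LTHSC Cdkn1c averaged 32.3 ± 9.0 CPM in VF, 16.9 ± 17.5 CPM in E12 and 71.6 ± 7.39 CPM in KI (SD, n = 3 each). Every VF and every E12 library lay below every KI library. The log2 fold change was -1.18 in VF against KI (SE 0.58, edgeR adjusted p = 0.666) and -2.10 in E12 against KI (SE 0.60, adjusted p = 0.253). Groups without overlap were common: 30.9% of 14152 tested genes in VF against KI and 16.1% in E12 against KI.

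The 2 low E12 libraries were E12 11 and E12 4, at 6.58 and 6.98 CPM, and E12 2 was at 37.2 CPM, inside the VF range. Mpo was at 111.2 CPM in E12 11, 122.9 CPM in E12 2 and 16070 CPM in E12 4. The sum of lymphoid genes was 307, 228 and 2050 CPM in these libraries. The part of other cells in the Cdkn1c levels was not tested. Without E12 4 the E12 difference was log2 -1.74 (SE 0.58, adjusted p = 0.244). Without E12 2 it was -3.41 (adjusted p = 0.00674), and VF against E12, at 0.92 with all libraries (SE 0.58, adjusted p = 0.494), was 2.23 (adjusted p = 0.0267). With DESeq2 E12 against KI was called (log2 -2.09, adjusted p = 0.0167), and over 10 alternatives the adjusted p ran from 0.00674 to 0.507.

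In MkP Cdkn1c averaged 3.35 ± 0.440 CPM in VF, 1.45 ± 0.651 CPM in E12 and 8.86 ± 5.96 CPM in KI (SD, n = 3 each). With TMM scaling the 3 groups did not overlap, with E12 lowest and KI highest. Without it MkP KI 5 was at 2.51 CPM, below the VF libraries at 3.05 to 3.95 CPM, so VF and KI overlapped. Against KI the log2 fold change was -1.51 in VF (SE 0.59, edgeR adjusted p = 0.142) and -2.73 in E12 (SE 0.61, adjusted p = 0.0616), and VF against E12 was 1.22 (SE 0.59, adjusted p = 1). Of 13435 tested genes, 20.3%, 23.6% and 14.8% had groups without overlap in these 3 comparisons. The inhibitor genes Cdkn1a and Cdkn1b, chosen after their values were seen, were also below KI in MkP and not called. Cdkn1a had log2 -2.15 in VF (edgeR adjusted p = 0.0788) and -3.27 in E12 (0.0616). Cdkn1b had -1.48 (0.0755) and -1.72 (0.0616). Over the 15 tested genes of their list the medians were 0.27 and -0.02. The KI mean of Cdkn1c was raised by KI 6, at 15.6 CPM, and KI 5 and KI 6 were libraries of low TMM factor. They also held 4910 and 6600 CPM of lymphoid markers, against 362 to 675 CPM in the other MkP libraries. The nuclear RNA Malat1 was at 18980 and 8857 CPM in them, against 764.8 to 1411 CPM in the others. The part of these in the Cdkn1c difference was not tested. Without the low-factor libraries, which left KI 4 alone and assumed to vary like the others, the values were -1.0 in VF (SE 0.59, adjusted p = 0.582) and -2.22 in E12 (SE 0.58, adjusted p = 0.13). Without KI 4, which left only the 2 low-factor KI libraries, both were called (-1.72, adjusted p = 0.0333 in VF; -2.94, adjusted p = 0.00204 in E12). DESeq2 called both too (adjusted p = 0.0433 in VF and 0.000144 in E12), and the alternatives ranged from 0.0333 to 0.582 in VF and from 0.000144 to 0.992 in E12.

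In preMegE Cdkn1c averaged 2.05 ± 2.10 CPM in VF and 2.15 ± 1.46 CPM in KI, and the groups overlapped (log2 -0.10, SE 0.91, edgeR adjusted p = 0.984). The difference of VF minus KI between preMegE and LTHSC was log2 1.04 (SE 0.97, adjusted p = 0.941). Between MkP and LTHSC it was -0.26 for VF minus KI (SE 0.94, adjusted p = 0.934), and for E12 minus KI it was -0.54 (SE 0.95, adjusted p = 0.759). The 2 KI comparisons in each population share their KI libraries, so they are not independent of each other.

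**Figure D4:**
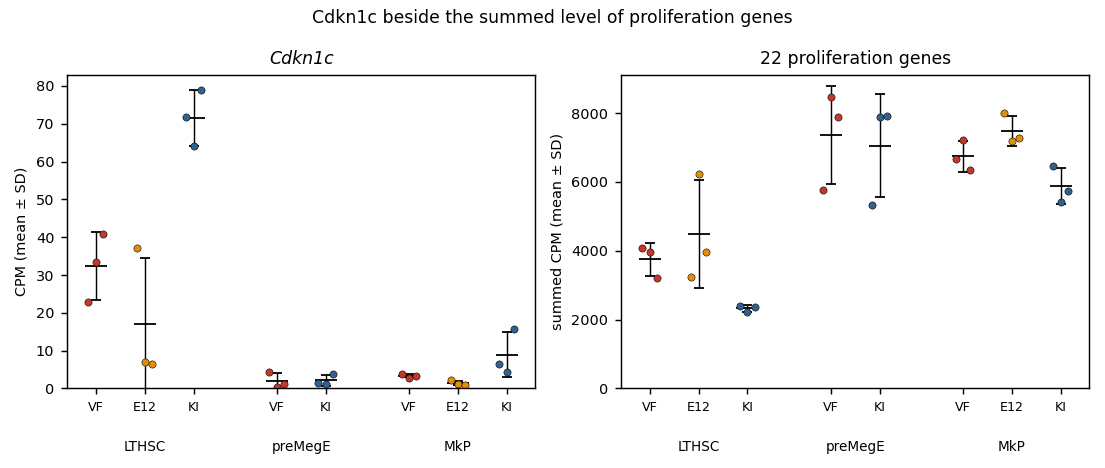
Left, CPM of Cdkn1c; right, summed CPM of 22 proliferation genes; points are libraries, lines the group mean and SD (n = 3), and SD bars that would pass below 0 end there. In LTHSC the VF and E12 libraries lie below KI (64.1 to 78.9 CPM) for Cdkn1c and above KI (2220 to 2410 CPM) for the proliferation sum.

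Proliferation genes stood on the other side of KI from Cdkn1c in LTHSC. Their sum was 3200 to 4090 CPM in VF, 3240 to 6240 CPM in E12 and 2220 to 2410 CPM in KI, with 6240 CPM in E12 4, and neither VF nor E12 overlapped KI. None of the 22 was called by edgeR in either comparison, with median log2 fold changes of 0.77 in VF against KI and 1.10 in E12 against KI, beside 0 and 0.02 for all genes. Mki67, the Ki-67 antigen, had log2 0.81 in VF against KI (SE 0.24, adjusted p = 0.353) and 0.99 in E12 against KI (SE 0.25, adjusted p = 0.209). In MkP the medians were 0.40 and 0.55. Whether these differences bear on Cdkn1c was not tested.

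Ndn was below KI in VF in LTHSC, at 20.8 ± 6.06 CPM in VF and 40.6 ± 5.25 CPM in KI (SD, n = 3 each), without overlap (log2 -1.0, SE 0.51, edgeR adjusted p = 0.681). Of all tested genes, 30.9% had groups without overlap in that comparison. In preMegE it averaged 0.780 ± 0.165 CPM in VF and 1.65 ± 0.922 CPM in KI, again without overlap (log2 -1.09, SE 0.78, adjusted p = 0.663; 12.1% of all genes had groups without overlap). Without TMM scaling preMegE KI 1, a library of low factor, was at 0.683 CPM, below VF 1 and VF 2 at 0.817 and 0.893 CPM, so the groups overlapped. In MkP VF, at 2.72 ± 0.687 CPM, lay below E12, at 5.91 ± 1.88 CPM (log2 -1.11, SE 0.64, adjusted p = 1), and overlapped KI (log2 -1.28, SE 0.65, adjusted p = 0.225). Groups without overlap made up 14.8% of all tested genes in VF against E12 in MkP. The direction was thus the same in the 3 populations for VF, and none of these differences passed the test. E12 against KI in LTHSC was log2 -0.35 (SE 0.51, adjusted p = 0.77), with 2 E12 libraries at 45.8 and 44.7 CPM and E12 4 at 8.11 CPM.

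Igf2r was higher in LTHSC of VF, at 15.7 ± 2.85 CPM, than in E12, at 7.18 ± 4.21 CPM, and in KI, at 9.35 ± 4.29 CPM, with no overlap of VF with either. Without TMM scaling the lowest VF and the highest KI library were both at 15.7 CPM. Neither difference passed the test (log2 1.12, SE 0.49, edgeR adjusted p = 0.451 against E12; 0.72, SE 0.49, adjusted p = 0.803 against KI). Grb10 was at 110 ± 9.48 CPM in VF and 56.7 ± 46.0 CPM in E12 in LTHSC (log2 0.96, SE 0.64, adjusted p = 0.512), a difference of log2 0.44 without E12 4. Of all tested genes, 21.2% had groups without overlap in VF against E12 and 30.9% in VF against KI in LTHSC.

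The scarce genes gave no call. Dlk1 had 0 counts in all 3 preMegE VF libraries and 16 in the KI libraries, too few for the filter within preMegE, and the difference of VF minus KI between preMegE and LTHSC was not called (edgeR adjusted p = 0.906). Plagl1 had 20, 57 and 0 counts in MkP VF, E12 and KI, with 1 VF and 1 E12 library at 0 (adjusted p = 0.256 in VF and 0.156 in E12 against KI). Meg3 in LTHSC averaged 3.98 ± 1.62 CPM in VF, 4.93 ± 3.97 CPM in E12 and 5.47 ± 1.36 CPM in KI, and the groups overlapped. Mest passed the test in none of the comparisons. Without MkP KI 4 alone, which left KI 5 and KI 6 with their low scaling factors, Mest was called higher in VF (log2 3.03, adjusted p = 0.00723) and in E12 (log2 3.26, adjusted p = 0.00472) than in KI, and so was Grb10 (log2 1.02, adjusted p = 0.0155 in VF; 0.97, adjusted p = 0.0195 in E12). In that comparison 6695 and 6833 of all genes were called, against 0 and 0 with all libraries.

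The counts of 0 rest on few calls overall. In LTHSC edgeR called 0.0919% of 14152 genes in VF against KI, 0.0424% in E12 against KI and 0.0353% in VF against E12, in preMegE 0.0151% of 13231 in VF against KI, and in MkP 0% of 13435 in each of the 3 comparisons. Of the 10 genes, an unadjusted p under 0.05 was found for 0, 1 and 1 in the LTHSC comparisons in that order, beside 8.11%, 13.8% and 11% of all genes, and for 0 in preMegE, beside 6.58%. In MkP it was found for 1, 2 and 0 in VF against KI, E12 against KI and VF against E12, beside 26.9%, 29% and 1.24% of all genes. DESeq2 called 1 of them, Cdkn1c, in E12 against KI in LTHSC and in both KI comparisons in MkP, and 0 in the other 4 comparisons; over all genes DESeq2 called 438, 2539 and 2834 in these 3. The 4 tests of a difference of differences called 0 of the 10 genes with edgeR and 0 with DESeq2 (0%, 0.0134%, 0.0334% and 0% of all genes with edgeR). Of the 10, Dlk1 had an unadjusted p under 0.05 in the VF minus KI difference of preMegE from LTHSC (0.0313), and none had in the other 3, beside 4.43%, 14.4%, 24.3% and 3.71% of all genes.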

How the data were processed

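RNA-seq counts of 24 libraries, 3 in each of 8 groups of population and genotype, were used. Per the submitters' processing notes, the authors used STAR 2.7.0c, featureCounts and Subread 1.6.4 with mm10; the annotation, the strand setting and the handling of multiply mapped reads are not given in the sources used here. The authors deposited raw counts per gene with a gene length in bases. The 6 columns named MEP were taken as preMegE by their sample titles. The 16 rows without a symbol, at most 0.013% of a library's counts, were left out. Of 24454 gene IDs, 24374 matched RefSeq.

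The 10 genes and all gene lists were chosen with earlier results of these data known. Every one of the 10 is named; of each list, genes named had an adjusted p under 0.05 and were among the 5 smallest p per comparison, unless stated otherwise; likeness names the 3 genes of highest r, predicted genes and pseudogenes left out (log2 CPM, prior count 2); that of Grb10 is not reported here. The test was edgeR 4.0.16, run in R 4.3.3, on the deposited counts (TMM scaling, filterByExpr with a minimum count of 10 and total of 15, robust quasi-likelihood F test, Benjamini-Hochberg over all tested genes), with the SE taken as the log2 fold change over the root of F. Genotypes were fitted within a population, and populations over all 24 libraries, in which preMegE comparisons average VF and KI. CPM used TMM factors over the 24 libraries. Intervals of pooled count ratios are exact binomial at 95%, and limits for a count of 0 use 3 counts; both cover counting error only. The procedure was tested on simulated data.

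Alternatives were RLE scaling, no filter, DESeq2 1.42.0, a replicate block, each library left out, CPM without TMM scaling and, added after seeing the data, leaving out the 4 libraries of low TMM factor. No 2 libraries were alike within counting noise (smallest chi-square per degree of freedom 19.82 over 276 pairs). Depth ranged from 10357877 to 29691635 counts, at which 3 counts equal 0.0899 to 0.503 CPM.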

Additional observations from a re-analysis of the deposited data

How the results depend on the processing

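Cdkn1c, Meg3 and Ndn were called lower in preMegE and in MkP than in LTHSC under all 17 and 23 alternatives run, and Ndn was called higher in MkP than in preMegE under all 17. Meg3 reached the filter through its LTHSC libraries, which favoured a lower call. RLE scaling and leaving out the 4 libraries of low TMM factor changed none of the counts of called genes of the family beyond 1.5 times. With DESeq2, 1 of the family was called in E12 against KI in LTHSC, 1 in E12 against KI and 1 in VF against KI in MkP, and 3 in MkP against preMegE; without the filter 1 was called in E12 against KI in MkP. Without the low-factor libraries, the Cdkn1c difference of VF minus KI between MkP and LTHSC was 0.19, against -0.26 with them. When single libraries were left out, the called genes of the family numbered 4 to 5 in preMegE against LTHSC, 4 to 7 in MkP against LTHSC, 1 to 2 in MkP against preMegE, 0 to 1 in E12 against KI and in VF against E12 in LTHSC (1 without E12 2), 0 to 3 in both KI comparisons in MkP and 0 to 1 in the E12 minus KI difference between MkP and LTHSC (the highest without MkP KI 4), and 0 in the other 6. Over those fits Cdkn1c changed direction in VF against KI in preMegE (-1.37 to 0.64), in the VF minus KI difference of preMegE (-0.20 to 1.80) and of MkP (-0.57 to 0.42) from LTHSC, and in the MkP minus LTHSC differences of E12 minus KI (-0.95 to 0.78) and VF minus E12 (-1.03 to 0.69). The labels do not say what the replicate numbers mean. Of 22 pairs of same-numbered libraries, 3 deviated together with a correlation over 0.1 (range -0.06 to 0.26). Between preMegE VF and KI the correlation was 0.26, 0.05 and 0.22 for replicates 1, 2 and 3. Such correlations cannot show whether the numbers mark shared animals or batches. With the replicate block, 3 of the family were called in MkP against LTHSC, and 2 in VF against KI in LTHSC (Cdkn1c -1.22, adjusted p = 0.0148; Ndn -1.03, adjusted p = 0.032). Over all genes, genotype calls depended on the tool and on single libraries. In LTHSC they were 13, 6 and 5 for VF against KI, E12 against KI and VF against E12 with edgeR, and 251, 438 and 165 with DESeq2, 334, 22 and 13 without the low-factor libraries, and 1 to 7, 2 to 415 and 1 to 311 with a library left out. Without the filter the last pair had 21 and 9, and the block gave 704 in VF against KI. In preMegE they were 2, against 68 with DESeq2, 9 without the filter, 10 with the block, 0 with RLE, 41 without the low-factor libraries and 0 to 41 with a library left out. In MkP the 0, 0 and 0 calls were 2539, 2834 and 9 with DESeq2, 52, 97 and 9 without the low-factor libraries, and 0 to 6695, 0 to 6833 and 0 with a library left out (the highest without MkP KI 4). E12 against KI in MkP had 1041 without the filter and 9 with the block. MkP against LTHSC had 5198 calls and 2278 with the block, and MkP against preMegE 1128, against 1745 with DESeq2, 2839 without the low-factor libraries and 705 to 1963 with a library left out. The 4 differences of differences had 0, 2, 5 and 0 calls with edgeR (VF minus KI in preMegE and in MkP, then E12 minus KI and VF minus E12) and 11, 324, 2043 and 43 with DESeq2, and without MkP KI 4 the second and the third had 2651 and 4566. The cause was not tested. CPM without TMM scaling moved 5 of 80 group means by more than 1 SD. Depth limits H19, Peg3, Plagl1 and Dlk1, whose levels lay near the value of 3 counts in most libraries.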

Other observations

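Snrpn, which lies in the same imprinted cluster as Ndn, encodes a splicing protein and shares its reads with Snurf (1367 and 1345 counts over all libraries), was below KI in the VF and, where present, the E12 libraries of all 3 populations. It was chosen after its values were seen. In LTHSC Snrpn was at 2.51, 4.24 and 4.30 CPM in VF, 3.00, 6.60 and 0.856 CPM in E12 replicates 11, 2 and 4, and 16.1, 9.32 and 11.9 CPM in KI. In preMegE it had 1 count in each VF library, against 2, 8 and 9 counts in KI. In MkP it had 6, 0 and 1 counts in VF and 6, 7 and 11 counts in E12 replicates 2, 4 and 5, against 28, 6 and 16 counts in KI replicates 4, 5 and 6. In CPM every VF and E12 library lay below every KI library of its population. In preMegE and MkP that order rests on these few counts. Of all tested genes, 30.9% in VF and 16.1% in E12 against KI in LTHSC had groups without overlap. The shares were 12.1% in VF against KI in preMegE, and 20.3% in VF and 23.6% in E12 against KI in MkP.

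None of these differences passed the edgeR test over all genes. The log2 fold change was -1.78 in VF against KI (SE 0.62, adjusted p = 0.44) and -1.86 in E12 against KI (SE 0.62, adjusted p = 0.276) in LTHSC. In MkP it was -3.44 (SE 1.22, adjusted p = 0.113) and -1.83 (SE 1.12, adjusted p = 0.288). In preMegE Snrpn did not pass the filter. The VF and E12 comparisons of a population share their KI libraries.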
